A study of Capra hircus with 2 samples.

Results

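The cytosolic ribosomal protein genes of goat skin were taken as all features whose symbol was RPL or RPS with a number, with or without an ending A, L, X or Y, together with RPLP0, RPLP1, RPLP2 and RPSA. The kinases named RPS6K were left out. The rule found 77 of 27137 features, of which 45 belong to the large and 32 to the small ribosomal subunit. The study profiled shoulder skin of 2 healthy Liaoning cashmere goats in anagen, the growing stage of the hair cycle, by single-cell RNA sequencing with a 3′ kit. One goat grew coarse cashmere (CT-LCG) and the other fine cashmere (FT-LCG), with 1 library each, and neither goat was treated. The sample labels do not separate the goats by fibre type, so the type of each cell was read from the deposited list of kept cells. Fibre type, animal and library cannot be told apart.

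Ribosomal proteins assemble with ribosomal RNA into the small subunit, which reads the messenger RNA, and the large subunit, which joins amino acids. Their messenger RNAs share a pyrimidine tract at the start that ties their translation to growth signals, and they are among the most abundant transcripts of most cells. In an anagen follicle, matrix cells divide at the base of the hair and their daughters fill with hair keratins. In the epidermis, basal cells divide and granular cells build the cornified layer.

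The list of kept cells held 3443 cells of CT-LCG and 9608 of FT-LCG, with a median of 2314 and 6121.5 unique molecular identifiers (UMIs, each a tag of 1 captured transcript) per cell. The libraries shared 11 cell barcodes. Cells were clustered without the 77 ribosomal protein genes of the rule, which gave 23 clusters, and 6 classes were named from marker genes. Features with a LOC symbol in place of a gene name were not left out. Any ribosomal protein genes among them were not identified. The class called KRT35 matrix was led by KRT35, a hair cortex keratin, but also by KRT25 and KRT27, keratins of the inner root sheath. It did not hold like cells in both goats. At a clustering resolution of 1.5 the class came out as 2 clusters. The larger, with 157 cells from CT-LCG and 323 from FT-LCG, had KRT35 at 28.6 and 36.1 UMIs per 10000. In the smaller, with 97 and 78 cells, KRT25 stood at 87.8 and KRT35 at 5.81 in CT-LCG, whereas in FT-LCG KRT25 stood at 5.20, KRT35 at 53.6 and KRTAP11-1, a keratin-associated protein gene, at 270.4. In CT-LCG, 120 of its 241 cells had no KRT35 UMI, at a median depth of 1470 UMIs, against 158 of 402 cells in FT-LCG at a median of 15658. KRT35 UMIs also appeared in 667 CT-LCG and 2555 FT-LCG cells outside this class, with cells in none of the 6 classes counted. A single UMI thus does not mark a matrix cell. The cycling class was led by CENPF, UBE2C and TOP2A, genes of cell division, and held KRT35 at 0.202 UMIs per 10000 against 34.7 in the matrix class. KRT14, one of the basal markers, stood at 147.2 and 289.6 in cycling cells of CT-LCG and FT-LCG, and at 11.45 and 9.88 in matrix cells. MKI67, one of the cycling markers, stood at 1.65 and 1.88 in cycling cells and at 0.225 and 0.404 in matrix cells. Cell type and cell division thus cannot be told apart between these classes.

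Of the 6 classes, matrix cells had the largest part of their captured transcripts from ribosomal protein genes, and granular and immune cells the smallest. In KRT35 matrix cells the median share of a cell's UMIs was 34.6% for CT-LCG and 35.7% for FT-LCG, which is 35.1% ± 0.764 (SD, n = 2 libraries). Basal cells followed with 28.1% for CT-LCG and 31.5% for FT-LCG. In both libraries the matrix median lay above the basal median, and the basal median above those of the other 4 classes. This order held for the clusters used here and turned with 10 principal components, the number first planned, where the mean of the library medians was 30.8% in basal, 28.1% in cycling and 27.4% in matrix cells.

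The median share was 22.4% and 23.7% in cycling cells of CT-LCG and FT-LCG, and 23.7% and 22.4% in stromal cells, which pool fibroblast, contractile and endothelial clusters. These neighbours in the order changed places between the libraries. Granular cells had 19.5% and 18.5%. Immune cells, which pool antigen-presenting, T and mast cells, had 17.9% for CT-LCG and 22.2% for FT-LCG, so granular cells were lowest in FT-LCG and immune cells lowest in CT-LCG. With the 2 libraries being different goats, the shares were described without a test.

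**Figure D1:**
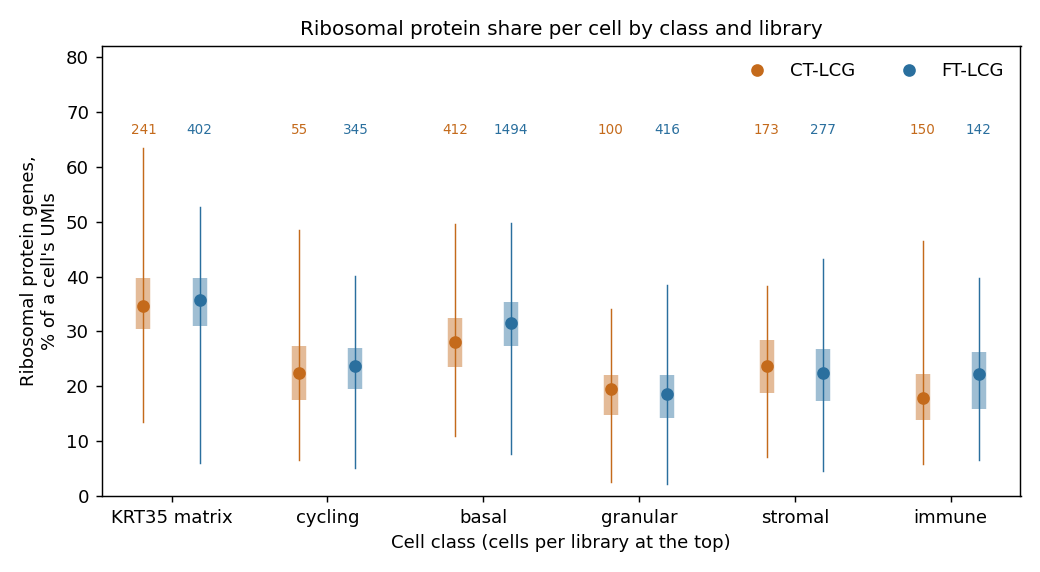
Ribosomal protein share of a cell's UMIs (percent, y axis) in 6 classes (x axis) of CT-LCG and FT-LCG. Points are medians over cells, wide bars the middle 50% of cells, thin lines the full range, and the numbers at the top count the cells. The matrix medians of 34.6% and 35.7% stand above all other medians, and the ranges of all classes overlap.

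Cells within a class also differed in their share. In FT-LCG the middle 50% of matrix cells lay between 31.0% and 39.8%, and that of cycling cells between 19.6% and 27.1%, so these ranges did not meet. The matrix range began below the upper end of the basal range, which ran from 27.3% to 35.3%. Depth moved with the share: FT-LCG basal cells had a median of 24.6% under 3000 UMIs and 32.6% over 10000, and FT-LCG matrix cells had 30.8% and 36.2%. Above 10000 UMIs, matrix cells were still higher than basal cells, with 38.2% against 29.9% in CT-LCG and 36.2% against 32.6% in FT-LCG, although the CT-LCG matrix cells of that depth numbered 12.

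Abundant structural genes take room from the share. A set of 47 features was taken by keratin or keratin-associated symbols and from the granular and spinous marker lists. They held a median of 11.2% and 14.7% of the UMIs of granular cells in CT-LCG and FT-LCG. Features with LOC symbols, which are among the leading genes of the granular cluster, were not in this set and stayed in the denominator. With those 47 features out of the denominator, the granular medians became 21.8% and 22.4%, while the matrix medians were 36.0% and 36.1%. The order of matrix above basal above the other classes was the same. The 2 subunits kept nearly fixed proportions, since large-subunit genes made up between 53.4% and 56.0% of ribosomal protein UMIs over the 12 combinations of class and library.

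Some clusters outside the 6 classes reached lower values, and others lay within the span of the classes. The largest, an unnamed cluster of 893 and 1920 cells, had 25.75% for CT-LCG and 20.3% for FT-LCG. An unnamed cluster led by TRPV3 and EPPK1 had the lowest medians, 8.40% for CT-LCG and 13.3% for FT-LCG. An inner root sheath-like cluster with TCHH, the gene of trichohyalin, had 13.8% and 16.7%, at low median depths of 1524.5 and 1080 UMIs. Outer root sheath or bulge-like cells marked by CXCL14 and LGR5 had 23.0% and 27.2%, and those marked by KRT6A had 29.5% and 26.4%. Spinous-like cells, the layer above the basal cells, had 18.9% and 20.2%. Hair follicle clusters thus lay at both ends of the order.

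Matrix cells were next set against cycling cells. Of 75 ribosomal protein genes that passed the filter on low counts, 13 were higher in matrix cells and 0 lower, by edgeR's quasi-likelihood test on the 12 sums of UMIs per class and library. Those 13 are 17.3% of the members, where 3.23% of all 11963 genes tested were called higher and 4.91% lower. Among the 10219 genes that had no part in the clustering, as the members had none, 2.24% were called higher. The fold was positive for 74 of 75 members, and their median log2 fold change was 0.68, against -0.024 for all genes. At an unadjusted edgeR p under 0.05 there were 63. The share of all genes at that unadjusted threshold was not counted, here or in the comparisons below, so such counts are description only. The number called rested on the settings. It was 48 with DESeq2 (3.88% of all genes), 5 with scaling by total UMIs (2.67%), 4 without the Harmony correction for library (2.99%) and 0 without the library term (1.17%), where 39 had an unadjusted edgeR p under 0.05. RPS27L, a p53-induced relative of RPS27, was the exception, at -0.20 (edgeR adjusted p = 0.708).

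This comparison depended on the clusters. With 10 principal components in place of 20, the cycling cluster took in 195 of the matrix cells and held KRT35 at 3.58 UMIs per 10000, and 0 members were called higher, where 1.51% of all genes were. With those clusters 1 member had an unadjusted edgeR p under 0.05 and the median log2 fold change was 0.19. The number of 20 was chosen after both results had been seen. The next values split the 10-component clusters by the matrix labels of 20 components, so they repeat those labels and are no separate support. In that cycling cluster, cells so labelled had a median share of 34.2% in both CT-LCG and FT-LCG, and the remaining cells 23.5% and 23.8%. The hair cluster of 10 components held KRT35 at 42.7 UMIs per 10000, above the 34.7 of the matrix class of 20 components. In that hair cluster, cells with the matrix label had 35.7% and 36.8%, and cells without it 18.7% and 17.8%.

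Gates on markers, with no clustering, gave a similar order. The KRT35 gate uses a marker that named the matrix class, so it is no separate support. Cells with 20 or more KRT35 UMIs numbered 19 in CT-LCG and 143 in FT-LCG inside that class, and 1 and 5 outside it. Among cells with at least 3000 UMIs, those with KRT35 at 10 or more per 10000 UMIs and summed cycling markers under 10 had a median share of 40.0% in CT-LCG (15 cells) and 38.7% in FT-LCG (128 cells). Cells with cycling markers at 10 or more and KRT35 under 1 had 22.2% (114 cells) and 26.0% (407 cells). Cells with summed basal markers at 200 or more, and cycling markers and KRT35 under 1, had 29.3% (33 cells) and 30.0% (671 cells). KRT35 cells that also reached 10 for the cycling markers had 33.0% in the single CT-LCG cell and 31.7% in 16 FT-LCG cells. The middle 50% of those FT-LCG cells ran from 28.8% to 34.7%, below that of FT-LCG KRT35 cells without cycling markers, which began at 35.4%, and overlapping that of the cycling gate, which ended at 30.6%. The cycling gate did not hold like cells in both libraries, since the median of their summed basal markers was 24.2 UMIs per 10000 in CT-LCG and 392.9 in FT-LCG.

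**Figure D2:**
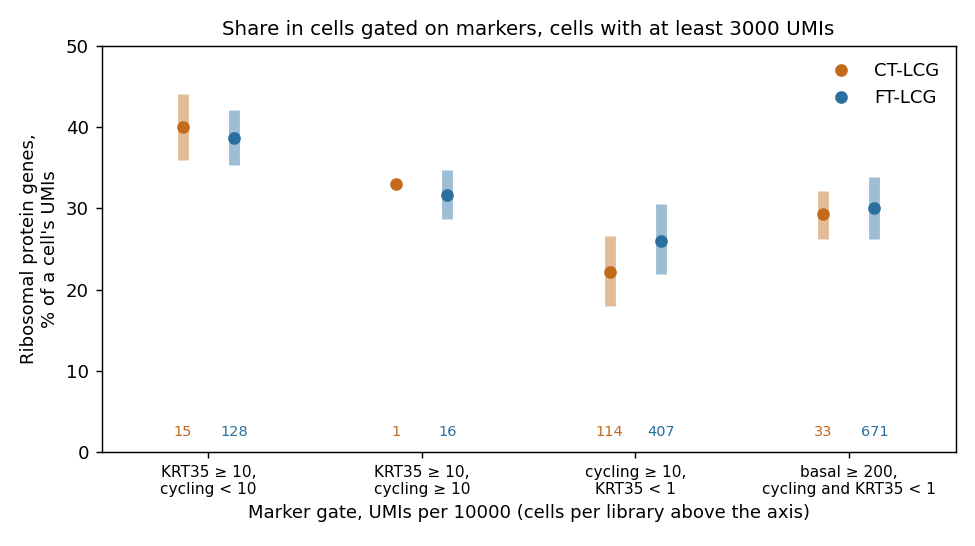
Ribosomal protein share (percent of a cell's UMIs, y axis) in cells with at least 3000 UMIs, gated on UMIs per 10000 of KRT35, summed cycling markers and summed basal markers (x axis). Points are medians, bars the middle 50% of cells, and the numbers give cells per library. KRT35 cells without cycling markers stand highest, at 40.0% and 38.7%.

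RPS12, a small-subunit protein, had the largest fold between matrix and cycling cells. Its level was 136.1 and 126.5 UMIs per 10000 in matrix cells of CT-LCG and FT-LCG, and 70.95 and 65.8 in cycling cells, so that the groups did not overlap. The log2 fold change was 1.11 (SE 0.215, edgeR adjusted p = 0.0109). Levels here are per total UMIs, whereas log2 fold changes carry TMM scaling unless total UMIs are named, so they differ. By total UMIs the fold of RPS12 was 0.94. RPS15 stood at 48.5 and 42.9 in matrix cells against 24.97 and 23.4 in cycling cells, with a log2 fold change of 1.09 (SE 0.228, edgeR adjusted p = 0.016).

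RPLP0, the base of the acidic stalk on the large subunit, had 86.9 and 91.3 UMIs per 10000 in matrix cells and 44.7 and 52.1 in cycling cells. Its log2 fold change was 1.06 (SE 0.229, edgeR adjusted p = 0.0185). RPSA, which serves both in the small subunit and as a laminin receptor, had 75 and 69.1 against 38.7 and 43.4 (log2 fold change 0.99, SE 0.25, edgeR adjusted p = 0.0336). For these 4 genes, picked for their folds, both matrix libraries stood above both cycling libraries. The same held for RPL32 and RPS2, which were not called, and the share over all genes was not counted.

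RPS26, a small-subunit protein near the exit of the messenger RNA, had 47.1 and 25.5 UMIs per 10000 in matrix cells and 24.7 and 16.7 in cycling cells, with a log2 fold change of 0.94 (SE 0.24, edgeR adjusted p = 0.0352). The lower matrix value, from FT-LCG, lay just above the higher cycling value, from CT-LCG. RPL8, RPL6, RPL29, RPL13, RPL15, RPS3 and RPS29 were also called, with log2 fold changes between 0.81 and 0.92. RPLP1 and RPLP2, which pair on RPLP0 in the stalk, were not called, with log2 fold changes of 0.39 and 0.75 (edgeR adjusted p = 0.319 and 0.0578).

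Other lists of the translation machinery also held called genes, read here against the 3.23% of all genes called higher. Of 21 features for translation factors and related pyrimidine-tract genes, 2 were higher in matrix than in cycling cells: EEF1G, a subunit of elongation factor 1, by 1.27 on the log2 scale, and EIF3L, a subunit of initiation factor 3, by 1.17 (edgeR adjusted p = 0.00737 and 0.026). Of 32 ribosome biogenesis genes, 2 were higher. These were NHP2, of the particle that guides pseudouridine formation, by 1.68, and NPM1, nucleophosmin, by 1.43 (edgeR adjusted p = 0.0108 and 0.0258). The lists had medians of 0.41 and 0.52, and 0 members of either were lower. Among 77 mitochondrial ribosomal protein genes, 4 were higher, MRPL15, MRPL51, MRPL40 and MRPL11, with log2 fold changes between 1.01 and 1.17, and the median was 0.46. With total UMIs 1 of those 77 was higher. Among 7 ribosomal proteins under other symbols, such as FAU and RACK1, 0 were called.

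Matrix and basal cells were not separated by single members. In the edgeR fit 0 of 75 members were called higher and 0 lower, where 6.47% and 8.69% of all genes were, and 2 members reached an unadjusted p under 0.05. DESeq2 called 4 higher, against 7.13% of all genes. The median log2 fold change was 0.084, with 44 members above 0, against -0.061 for all genes. With total UMIs it was 0.25, with 58 members above 0, against 0.10 for all genes. Relative to the median of all genes, the members lay at 0.15 under both scalings and at -0.13 with 10 principal components. With TMM scaling the members' median was 0.20 in CT-LCG alone, -0.061 in FT-LCG alone and -0.15 with 10 principal components, so no direction is given. RPS15 had the largest fold, 0.63 with TMM scaling (edgeR adjusted p = 0.0851) and 0.79 with total UMIs. Its basal levels were 25.6 and 27.1 UMIs per 10000 in CT-LCG and FT-LCG, beside the matrix levels above.

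Other lists held called genes in that comparison, with 1 higher and 2 lower of 21 translation features. Of 32 biogenesis genes, 3 were higher and 2 lower. These counts are near the 6.47% and 8.69% of all genes called higher and lower, so they do not set the lists apart. EEF1G was higher in matrix cells by 0.87, and both features named TPT1, the translationally controlled tumour protein, were lower, by edgeR log2 fold changes of -1.03 and -1.10. Of the biogenesis genes, NHP2, DKC1 and FBL were higher, by 1.14, 0.85 and 0.76. MYC, a transcription factor that drives ribosome production, and UTP14A were lower, with -1.57 and -1.21 (edgeR adjusted p = 0.0125 and 0.00605). Of the mitochondrial ribosomal protein genes, 6 were higher and 0 lower, with MRPS12 at 1.33 and MRPL11 at 1.14. Those 6 were among 77 tested, near the 6.47% of all genes called higher, and with total UMIs the number was 15, where 8.63% of all genes were.

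**Figure D3:**
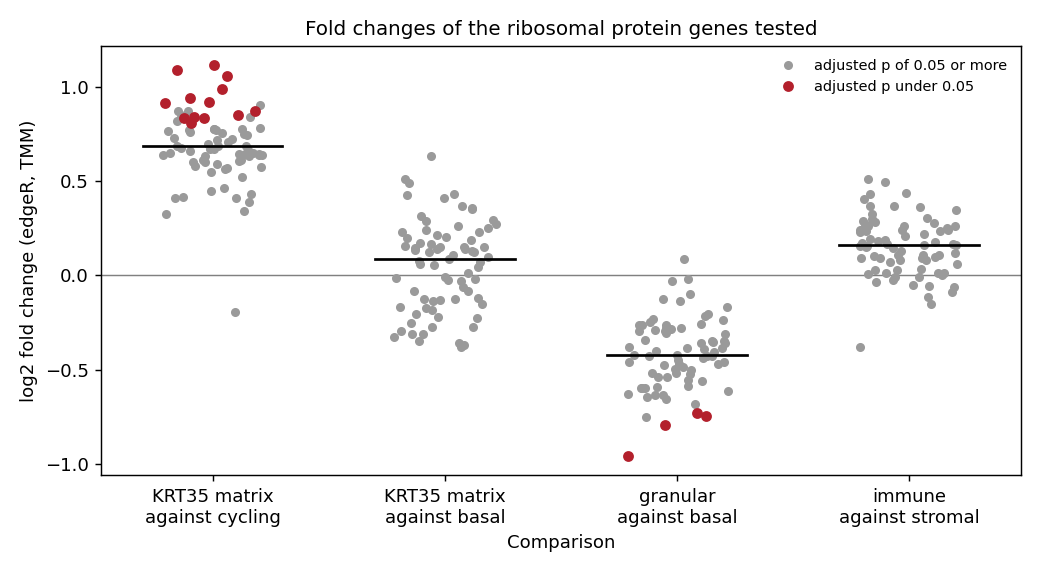
Log2 fold changes (y axis, edgeR with TMM scaling) of the 75 tested ribosomal protein genes in 4 comparisons of classes (x axis). Each point is a gene, black lines are medians, and red points have an adjusted p under 0.05. The medians are 0.68, 0.084, -0.42 and 0.16 from left to right.

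Granular cells had lower levels of 4 members than basal cells, and higher levels of 0, where 12.2% of all genes were higher. The 4 are 5.33% of the members, below the 12.4% of all genes called lower, so the number of calls does not set the members apart. The fold was negative for 74 of 75 members, with a median of -0.42 against -0.12 for all genes. Scaling by total UMIs instead of TMM moved the median of all genes to -0.45 and that of the members to -0.76, and called 55 members lower where 20.6% of all genes were. Relative to the median of all genes, the members lay at -0.31 under both scalings.

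The 4 called genes were RPL5, RPL32, RPS24 and RPL23. RPL5, which carries the 5S ribosomal RNA and can bind MDM2, had 27.5 and 31.8 UMIs per 10000 in basal cells of CT-LCG and FT-LCG, and 12.04 and 12.15 in granular cells. Its log2 fold change was -0.96 (SE 0.273, edgeR adjusted p = 0.0247), and both basal libraries stood above both granular libraries. The same held for RPS12 and RPLP1, which were not called, and the share over all genes was not counted. RPL32 had 64.6 and 73.9 against 31.4 and 31.8, with a TMM-scaled log2 fold change of -0.80 (edgeR adjusted p = 0.0279). RPS24 had 65.7 and 67.6 against 32.3 and 30.9, and RPL23, which can also bind MDM2, had 62.0 and 52.4 against 31.5 and 23.7. With total UMIs, the scale of these levels, the log2 fold changes of RPL5, RPL32, RPS24 and RPL23 were -1.29, -1.13, -1.08 and -1.06. RPS12 was at -0.03 with TMM scaling (edgeR adjusted p = 0.948) and at -0.36 with total UMIs.

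Ribosome biogenesis genes also held calls in granular cells. Of 32 tested, 14 were lower and 0 higher than in basal cells, where 12.4% of all genes were lower, and the list median was -0.95. With total UMIs 20 of 32 were lower, beside 55 of 75 members, and the lists were not tested against each other. The largest falls were in TCOF1, which supports ribosomal DNA transcription, WDR12, which acts in maturation of the large subunit, and LYAR, a nucleolar protein, with log2 fold changes of -2.03, -1.95 and -1.94 (edgeR adjusted p = 0.00578, 0.00348 and 0.00385). FBL, the methyltransferase fibrillarin, was at -1.49. NAP1L1, a histone chaperone, fell by 2.89, EEF1B2 by 1.13 and HNRNPA1 by 0.86, as the 3 lower genes of the 21 translation features, with 0 higher. Those 3 are near the 12.4% of all genes called lower, so with TMM scaling they do not set that list apart. With total UMIs 13 of the 21 were lower, where 20.6% of all genes were. Of the other ribosomal proteins, RPL22L1, a paralogue of RPL22, fell by 1.71 and RPL36AL by 0.75. Of 77 mitochondrial ribosomal protein genes, 4 were higher, led by MRPS6 at 1.34, MRPL19 at 1.23 and MRPS24 at 0.96, and 1 was lower, MRPL12 at -1.33, fewer in each direction than the 12.2% and 12.4% of all genes would give. With total UMIs 1 was higher and 8 lower, so no direction is given for this list.

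In immune against stromal cells, 0 of 75 members were called in either direction, where 6.81% of all genes were called higher and 7.46% lower. DESeq2 also called 0, and 2 members had an unadjusted edgeR p under 0.05. The median log2 fold change was 0.16, but -0.17 in CT-LCG alone and 0.46 in FT-LCG alone. Scaling by total UMIs turned it to -0.11, while the median of all genes moved from -0.018 to -0.29. PABPC1, which binds the poly(A) tail, was higher in immune cells by 0.94, GAR1 and NIP7 of the biogenesis list by 1.44 and 1.58, and MRPL41 by 0.90, with 0 genes of these lists lower. They are 1 of 21, 2 of 32 and 1 of 77 tested genes, beside the 6.81% of all genes called higher. With total UMIs, by which 4.7% of all genes were higher and 10.7% lower, 0 genes of these lists were higher and 2 mitochondrial ribosomal protein genes were lower.

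Immune cells of FT-LCG also carried transcripts of basal keratinocytes. The 7 basal markers found among the features summed to 14.4 UMIs per 10000 in immune cells of CT-LCG and 309.2 in those of FT-LCG, where single cells ranged from 3.28 to 921.7, and KRT14 alone stood at 7.30 and 200.7. All 7 were detected in both libraries. In stromal cells the sums were 17.2 and 50.1. In the antigen-presenting cluster, the median ribosomal protein share was 12.1% in CT-LCG (30 cells) and 22.5% in FT-LCG (77 cells). In its cells with under 50 basal marker UMIs per 10000, the share was 11.6% (25 cells) and 12.9% (22 cells). The same limit over all immune cells gave 18.2% in CT-LCG (141 cells) and 20.1% in FT-LCG (76 cells). FT-LCG thus lay 10.4 percentage points above CT-LCG in antigen-presenting cells before the limit and 1.25 above it after.

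All 4 comparisons came from 1 fit, so these cells entered each of them. With immune and stromal cells over that limit left out, a step added after the data were seen, edgeR called 62 of 75 members higher in matrix than in cycling cells, where 5.2% of all genes were. The common dispersion of that fit was 0.0568, against 0.0713 with all cells, and 11722 genes were tested in place of 11963. The part of either in the larger number was not tested. The same fit called 31 members lower in granular than in basal cells, against 14.2% of all genes, and 8 members higher in matrix than in basal cells, against 9.08%. In immune against stromal cells the median log2 fold change became -0.094 and 4 members were lower, against 9.9% of all genes. These were RPL23A, RPL10, RPL27A and RPS27A, with log2 fold changes of -0.60, -0.54, -0.46 and -0.45 (edgeR adjusted p = 0.0302, 0.0194, 0.0391 and 0.0321).

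Across all kept cells, the ribosomal protein UMIs were spread over many genes. UMIs of a 3′ kit tag an end of each transcript, so levels are per 10000 UMIs and not per length, and reads shared with pseudogenes or copies can lower a gene's count. RPLP1 was the most abundant member, with 86.3 UMIs per 10000 for CT-LCG and 87.5 for FT-LCG. RPS12 had 74.4 and 82.04, RPS19 47.6 and 66.3, and RPL31 51.2 and 56.7. The 5 most abundant genes held 14.3% and the first 20 held 43.0% of all ribosomal protein UMIs, and 71 of 77 members reached 10 UMIs per 10000 in both libraries.

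At the low end stood RPL36A, RPL4 and RPS27L, with 9.20 and 7.82, 5.37 and 4.12, and 3.08 and 3.37 UMIs per 10000. RPL3L, which replaces RPL3 in striated muscle, had 4 UMIs in all, of which 3 came from CT-LCG. RPL10L, a testis paralogue of RPL10, had 0 UMIs, which allows up to 3 counts in each library. RPS4X, the X-linked S4 protein, had 19.3 and 26.1.

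By class, 47 of 75 members (62.7%) had their highest level in matrix cells in both libraries, where 14.0% of 4003 genes with at least 10 UMIs in each sum did. For 39 members (52%) the lowest class was granular in both libraries, against 32.3% of those genes. RPLP1 had 109.6 and 97.3 UMIs per 10000 in matrix, 105.3 and 105.1 in basal and 85.2 and 71.1 in granular cells. Its levels in basal and matrix cells overlapped. RPS19 was higher in basal than in matrix cells of FT-LCG, with 85.4 against 68.8, and equal within 1 UMI per 10000 in CT-LCG, with 66.7 against 66.4. RPS2, a small-subunit protein, had 80.1 and 83.3 in matrix cells, 55.7 and 64.6 in basal cells and 35.7 and 36.2 in granular cells. RPS7 had 58.9 and 61.4 in matrix cells and 51.9 and 67.3 in basal cells, so these classes overlapped. RPS24 was higher in matrix than in basal cells in CT-LCG, with 67.4 against 65.7, and lower in FT-LCG, with 55.6 against 67.6.

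The make-up of the ribosomal protein pool, each gene's share of all ribosomal protein UMIs, varied less than the size of the pool. Over the 6 classes, the log2 range of a member's share had a median of 0.32 and ran from 0.12 to 0.87, with 0 of 75 members over 1. RPS27L varied most. It made up 0.165% and 0.168% of the pool in cycling cells of CT-LCG and FT-LCG, and 0.0777% and 0.104% in matrix cells.

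RPL23A held 0.909% and 0.616% of the pool in stromal cells and 0.556% and 0.396% in matrix cells, so the stromal value of FT-LCG was near the matrix value of CT-LCG. RPSA held 2.04% and 1.98% in matrix cells and 1.23% and 1.34% in granular cells. RPS15 held 1.32% and 1.23% in matrix cells and 0.855% and 0.84% in basal cells. For RPS27L, RPL23A, RPSA and RPS15 the high and low classes did not overlap. The same held for RPL13A, the member with the narrowest range, at 0.12, and it was not counted over all members. RPS27L, RPL23A, RPSA and RPS15 were picked for their range, which is therefore a description.

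**Figure D4:**
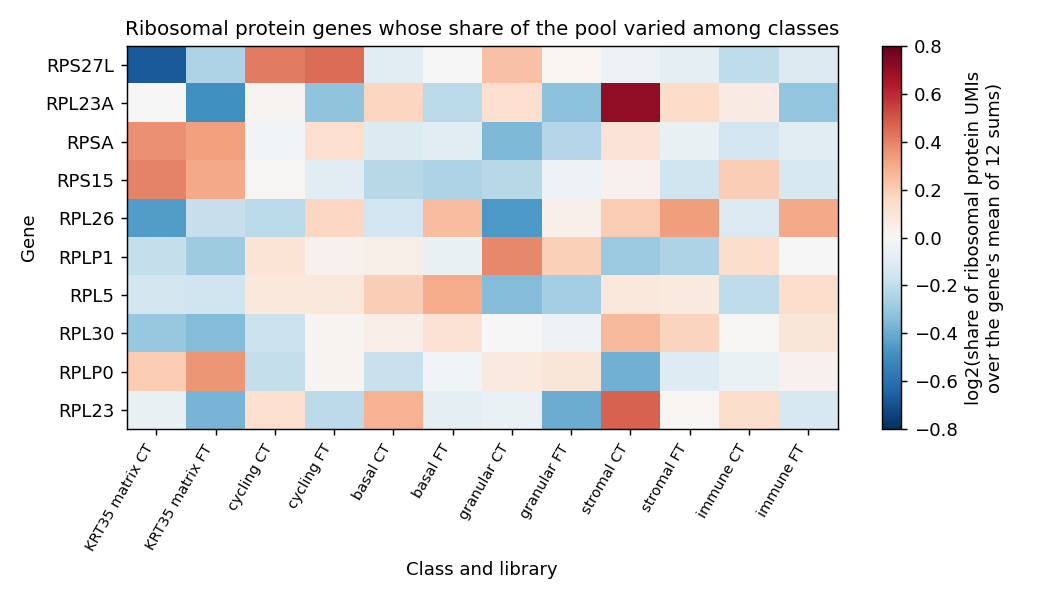
Share of the ribosomal protein UMIs held by 10 of the genes that varied most over classes (rows), in 12 sums of class and library (columns), as the log2 ratio to the gene's mean over the sums. RPS27L is high in both cycling columns, and RPSA and RPS15 are high in both matrix columns.

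CT-LCG and FT-LCG differed gene by gene, while the pooled share over all kept cells was 23.1% and 26.6% and the median share 24.4% and 23.4%. With 1 library each there was no test. Of 75 members, 17 (22.7%) were higher in FT-LCG in all 6 classes and 7 (9.33%) were lower in all 6. Of the same 4003 genes, 7.44% were higher and 17.8% lower in all 6 classes. The immune class, with its keratinocyte transcripts, had the highest FT-LCG to CT-LCG ratio for each of the 17 genes.

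RPL39, a small protein that lines the exit tunnel, was lower in FT-LCG in every class, with a median log2 ratio of FT-LCG to CT-LCG of -0.82 and a range from -0.89 to -0.36. RPS26 had a median of -0.73, RPL4 of -0.57 and RPL13 of -0.46, followed by RPL38 and RPL21 at -0.39 and -0.25. RPL10A, a large-subunit protein, was higher in FT-LCG by a median of 0.55, from 0.35 in matrix cells to 1.24 in immune cells. RPL15 followed at 0.46, RPL26 at 0.41, RPL3 at 0.38 and RPL8 at 0.26. In matrix cells RPL39 had 24.9 and 13.95 UMIs per 10000 for CT-LCG and FT-LCG, and RPL10A 23.9 and 30.5. These genes were named after their values had been seen.

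**Figure D5:**
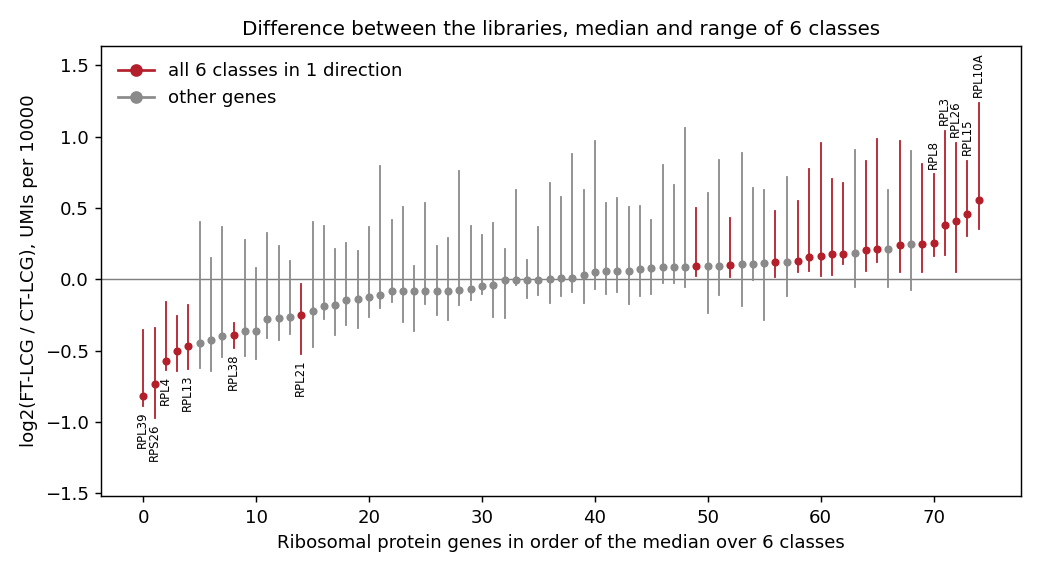
Log2 ratio of FT-LCG to CT-LCG in UMIs per 10000 (y axis) for 75 ribosomal protein genes in order of their median over 6 classes (x axis). Points are medians and lines run from the lowest to the highest class. Red genes go the same way in all 6 classes, from RPL39 at -0.82 to RPL10A at 0.55.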

How the data were processed

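Single-cell libraries of skin from 2 goats were analysed. The authors deposited raw UMI counts in 1 matrix, written by Cell Ranger 3.0.2, and a table that gives each retained cell its library. The submitters' processing notes also name bcl2fastq and Seurat 3.1.1, and the sources used here do not give the goat genome build. That table names the fibre type, which the sample labels do not. The 37 mitochondrial genes of the reference table were not among the features. All 77 members had their identifiers in that table. Features with LOC symbols were not counted, and no sequences were used here.

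For clustering, log values at 10000 UMIs per cell were used. The 2000 variable genes were chosen without the 77 members or the fixed lists, while LOC features could be chosen. Then 20 principal components were corrected for library with Harmony, rewritten in numpy, and clustered by the Leiden algorithm at resolution 1 on 20 neighbours. The plan had named 10 components as the main setting and 20 as the alternative. They were exchanged after both sets of results had been seen, because at 10 the cycling cluster held KRT35, against the definition of that class. Clusters were named from marker lists with at least 3 detected markers. The caller Scrublet marked 0 doublets in either library, so the 5% of cells with the highest scores were left out as an alternative.

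UMIs were summed per class and library into 12 sums of 475869 to 12496994 UMIs, and tested with edgeR's quasi-likelihood test with a library term (TMM scaling, filterByExpr, 11963 genes, Benjamini-Hochberg adjustment over all genes, threshold 0.05, 5 residual degrees of freedom). The 2 libraries served as replicates of a class, although they are different goats. The library term takes up any shift between these 2 libraries that all classes share. The p-values therefore measure how unevenly the libraries differ from class to class, over all classes of the fit. They do not measure the full spread between the goats. The kept cells held 27890472 and 85400323 UMIs. Counting error depends on a gene's count in each sum and was not compared with that unevenness. In simulated counts for matrix against cycling cells over 11963 genes, edgeR recovered 19% of genes changed by a log2 of 1 and 81% of those changed by 2. The simulation had no library effect and the same dispersion of 0.05 for every gene. The common dispersion of the data was 0.0713, so the simulated setting was easier than the data. Alternatives were other shares, denominators, depths, cell filters and clusterings, DESeq2, total-UMI scaling, no filter and no library term. Those on cells of at least 3000 UMIs, KRT35 UMIs, marker gates and basal markers were added after the data were seen.

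Members, lists and classes were chosen with earlier results of these data known. The text names, per comparison, the 5 called members with the largest fold each way, the 5 highest and lowest levels, members ending in L, X or Y, members that the study names, the 5 with the widest range in the pool, and the 3 most changed called genes of each list. Some members that the rule would name are not reported here by name. Genes outside this rule are those in counts, or are said to be chosen after their values were seen. Versions were Python 3.11.15, leidenalg 0.10.2, scanpy 1.11.5, numpy 2.4.6, R 4.3.3, edgeR 4.0.16 and DESeq2 1.42.0.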

Additional observations from a re-analysis of the deposited data

Results flagged for a closer look

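The median log2 fold change of the ribosomal protein genes went opposite ways in the 2 libraries in 2 of the 4 comparisons. For KRT35 matrix against basal cells it was 0.20 in CT-LCG and -0.061 in FT-LCG. For immune against stromal cells it was -0.17 in CT-LCG but 0.46 in FT-LCG. Summed basal markers were 14.4 and 309.2 UMIs per 10000 in immune cells of the same libraries, and 17.2 and 50.1 in stromal cells. Within the stromal class, fibroblasts had a median share of 24.6% in CT-LCG and 17.3% in FT-LCG. Endothelial cells had 23.9% and 24.15%, and contractile cells 21.5% and 20.6%. The difference between the libraries was not tested, since each goat gave 1 library.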

How the results depend on the processing

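The higher share of matrix cells kept its place above basal cells in every alternative run except 10 principal components. There the matrix share was 27.4% and the cycling share 28.1%. In that run 0 members were called higher in matrix than in cycling cells, where 1.51% of all genes were. Its median log2 fold changes were 0.19 against cycling and -0.15 against basal cells. The shares also moved with summed UMIs (cycling 24.9%, stromal 24.3%), the mean over cells (granular 18.1%), keratin and cornified genes left out (matrix 36.0%, cycling 24.2%, granular 22.1%), cells thinned to 1000 UMIs (matrix 35.9%), cells with at least 1000 genes (matrix 36.9%), cells with at least 3000 UMIs (matrix 38.0%, stromal 24.4%) and no Harmony (cycling 21.9%, basal 27.0%, granular 17.3%). Without either library the shares ran from 34.6% to 35.7% in matrix, 22.4% to 23.7% in cycling, 28.1% to 31.5% in basal, 18.5% to 19.5% in granular, 22.4% to 23.7% in stromal and 17.9% to 22.2% in immune cells.

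Brackets in this paragraph give the share of all genes called the same way. The number of members called higher in matrix than in cycling cells was 13 (3.23%). It became 48 with DESeq2 (3.88%), 5 with total UMIs (2.67%), 0 without the library term (1.17%) and 61 in thinned cells (4.32%). It was 4 without Harmony (2.99%), 7 at resolution 1.5 (2.8%) and 6 in cells with at least 3000 UMIs (2.73%). Without immune and stromal cells rich in basal markers it was 62 (5.2%). Against basal cells the number higher was 0 (6.47%), and became 4 with DESeq2 (7.13%) and 1 with total UMIs (8.63%). It was 1 without keratin and cornified genes (7.35%), 1 in thinned cells (5.46%) and 1 without Harmony (6.78%). Without the cells rich in basal markers it was 8 (9.08%). The number lower in granular than in basal cells was 4 (12.4%), and became 11 with DESeq2 (10.4%) and 55 with total UMIs (20.6%). It was 2 without a filter (8.11%), 0 without the library term (7.83%) and 38 in thinned cells (9.64%). Without Harmony it was 1 (10.8%), and without the cells rich in basal markers 31 (14.2%). In immune against stromal cells the number lower was 0 (7.46%), and became 4 without those cells (9.9%).

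The median log2 fold change of matrix against cycling cells was 0.68, and was 0.51 with total UMIs, 0.97 in thinned cells, and 0.56 to 0.79 in single libraries. Against basal cells it was 0.084, and was 0.28 in thinned cells, 0.36 without Harmony and -0.061 to 0.20 in single libraries. Granular against basal cells gave -0.42, and -0.76 with total UMIs, -0.73 in thinned cells, -0.25 without Harmony and -0.47 to -0.38 in single libraries. Immune against stromal cells gave 0.16, and -0.11 with total UMIs, -0.16 in thinned cells, -0.094 without the cells rich in basal markers, and -0.17 to 0.46 in single libraries. The 9 named called members kept their direction in all alternatives run, and of these values 74 stayed past the threshold and 25 did not. Nearly all members did so, called or not. In every setting 74 members were higher in matrix than in cycling cells, and 67 to 75 were lower in granular than in basal cells. The kept direction thus does not set the named members apart. The cause of these shifts was not tested. Counting LOC features and searching for the pyrimidine tract were planned and not run.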
